A study of Bos taurus and other sequences with 9 samples.

Results

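The Sigma serum and the Gibco serum were compared over 3 preparations of each, with 6 of the 9 samples of the series. Samples whose names end in 1 (FBS-1, UC-dFBS-1, UF-dFBS-1) were media made with the Sigma serum, and those ending in 2 (FBS-2, UC-dFBS-2, UF-dFBS-2) were made with the Gibco serum. The samples were chosen by these labels and not by a measured value. All 6 were DMEM/F12 with Glutamax, serum and pen-strep, and no cells were cultured in them. FBS was regular fetal bovine serum. UC-dFBS was the top layer of the supernatant after ultracentrifugation of that serum, passed through a filter, and UF-dFBS was its flow-through from a centrifugal ultrafilter. StemPRO, a defined serum-free medium for mesenchymal stem cells with 1 sample, served as background. Small ncRNA was sequenced from EV isolates of each medium, made with the exoRNeasy kit. The study did not establish that this RNA was bound to EVs. It considers a mixture of vesicular and non-vesicular RNA more likely. The other 2 samples, SBI-dFBS, hold neither serum and were not used.

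Each supplier was represented by 1 serum lot, and the 3 samples of a supplier were preparations of that lot rather than separate sera. The p-values therefore measure the spread between preparations, and a difference between suppliers cannot be told apart from a difference between lots. The product listing of the study gives the same catalogue reference for both sera and different lots, so that the supplier name rests on the labels. The serum is bovine, but reads were assigned to human miRNA names and human loci, and tRNA, snRNA, Y RNA and snoRNA loci are named after the human GRCh37 genome. No marker in the table tells Sigma from Gibco serum, so the labels could not be checked against the values. Total counts were 3536119 to 6867736 in the Sigma samples and 82513 to 912341 in the Gibco samples, with UF-dFBS-2 at the lowest. StemPRO had 6679. At the spike-in factor of UF-dFBS-2, 3 counts correspond to 0.125 spike-in normalized counts. They correspond to 0.0543 in UF-dFBS-1 and to 0.402 to 0.619 in the FBS and UC-dFBS samples. The low total of UF-dFBS-2 therefore did not raise its floor above that of the FBS and UC-dFBS samples.

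Serum holds RNA released by many tissues. miRNAs are short RNAs that guide repression of mRNAs, and in serum they are carried by EVs, lipoproteins and protein complexes. tRNA fragments are cut from mature tRNAs, which read codons by their anticodon, and 5′ fragments of a few tRNAs such as those for glycine, glutamate and histidine are known to be abundant in serum. snRNAs form the spliceosome, Y RNAs bind the Ro60 protein, and snoRNAs guide chemical modification of other RNAs. Sequences of these RNAs were not used here.

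Values are given as spike-in normalized counts, in which the authors divided each count by 1 factor per sample from added spike-in RNAs. A ratio is Sigma over Gibco within a preparation, and its log2 is positive where the Sigma sample was higher. With 3 preparations the exact two-sided sign-flip permutation test of the mean log2 ratio cannot give a p below 0.25, so that no class total could reach 0.05.

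tRNA fragments were the class with the largest supplier difference. Their total was 782752 in FBS-1 against 63322 in FBS-2, a ratio of 12.4. It was 532209 in UC-dFBS-1 against 129130 in UC-dFBS-2, a ratio of 4.12, and 123692 in UF-dFBS-1 against 3346 in UF-dFBS-2, a ratio of 37.0. The Sigma sample was higher in every preparation, but the groups overlapped, because UF-dFBS-1 was slightly below UC-dFBS-2. The mean log2 ratio was 3.63 ± 1.58 (SD, n = 3, exact permutation p = 0.25). StemPRO held 42.5.

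The miRNA total was 42063 in FBS-1 against 16687 in FBS-2, 7767 in UC-dFBS-1 against 3851 in UC-dFBS-2, while it was 76.1 in UF-dFBS-1 against 39.0 in UF-dFBS-2. These are ratios of 2.52, 2.02 and 1.95, the most even of the classes that differed in 1 direction, with a mean log2 ratio of 1.10 ± 0.20 (SD, n = 3, exact permutation p = 0.25). StemPRO held 13.3, so that the UF-dFBS values lay less far above the background than the others.

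The snRNA total was 1081 against 408.6 in FBS, 612 against 310 in UC-dFBS and 528 against 17.2 in UF-dFBS, Sigma sample first, with ratios of 2.65, 1.97 and 30.7. The mean log2 ratio of 2.44 ± 2.17 (SD, n = 3, exact permutation p = 0.25) had a spread nearly as large as itself. Most of it came from U4, as described below. The snoRNA total was 78.7 against 53.0, 40.1 against 24.2 and 5.54 against 1.37, with ratios of 1.48, 1.66 and 4.03 and a mean log2 ratio of 1.10 ± 0.79 (SD, n = 3, exact permutation p = 0.25). The value of UF-dFBS-2 was at the StemPRO level of 1.38.

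Y RNAs had no common direction. Their total was 532 in FBS-1 against 522 in FBS-2, 308 in UC-dFBS-1 against 411.3 in UC-dFBS-2, while it was 40.6 in UF-dFBS-1 against 31.4 in UF-dFBS-2. The ratios were 1.02, 0.750 and 1.29, and the mean log2 ratio was -0.0065 ± 0.39 (SD, n = 3, exact permutation p = 1). piRNAs had 0 to 2 counts in each of the 6 samples and were given no ratio.

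**Figure D1:**
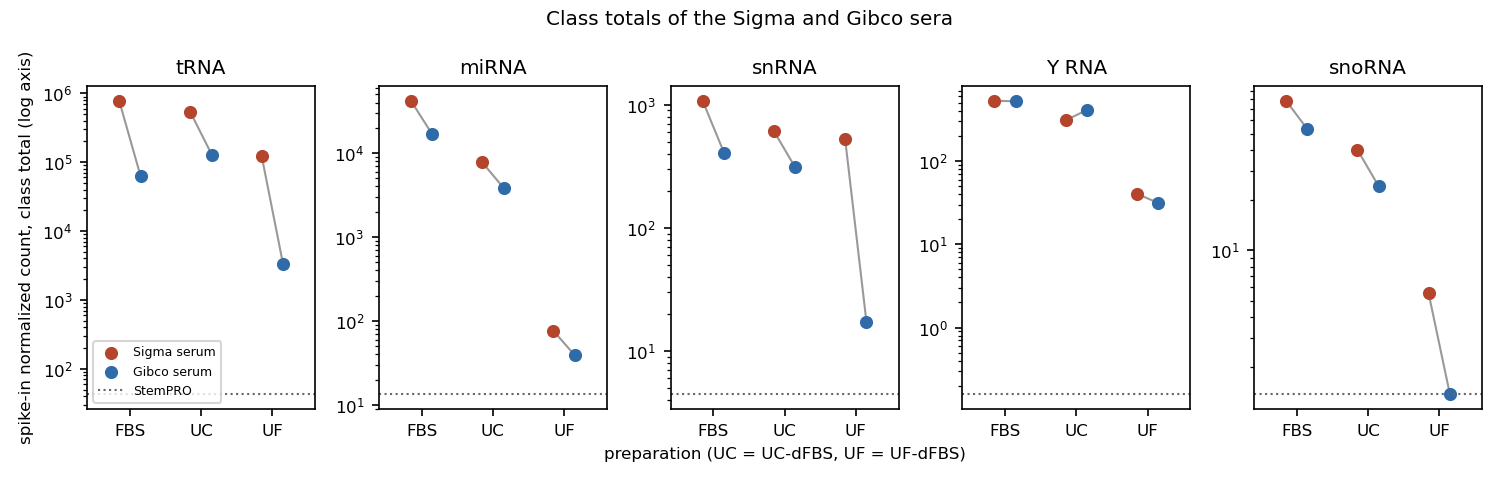
Spike-in normalized total of each RNA class (log axis) in the FBS, UC-dFBS and UF-dFBS preparations, 1 point per sample, with a grey line joining the Sigma and Gibco samples of a preparation and a dotted line at the single StemPRO sample. tRNA, miRNA, snRNA and snoRNA totals were higher in the Sigma sample of every pair, and Y RNA totals lay close together.

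The shares of counts gave another picture, because tRNA fragments filled most of every library and filled the Sigma libraries more. tRNA fragments took 94.7% of the counts in FBS-1 against 78.2% in FBS-2, 98.4% and 96.6% in UC-dFBS, and 99.5% and 97.4% in UF-dFBS. miRNAs took 5.09% in FBS-1 against 20.6% in FBS-2, 1.44% and 2.88% in UC-dFBS, and 0.0612% and 1.14% in UF-dFBS. The widest of their Wilson 95% intervals was 20.5% to 20.7%, in FBS-2, and such intervals cover counting error only. Thus the miRNA share was higher in the Gibco sample of every pair (mean log2 ratio of shares -2.41) while the miRNA level against the spike-ins was higher in the Sigma sample of every pair. The Y RNA share was also higher in every Gibco sample (mean log2 ratio -3.52). The spike-ins were of miRNA size and the libraries differed in depth. The part of these in the supplier ratios was not tested.

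The tests across single RNAs used edgeR on counts with the spike-in factors as library sizes and the preparation as a term. An RNA was tested if it had at least 10 counts in at least 3 of the 6 samples. The 3 samples of 1 serum were enough, so an RNA high in that serum alone could be tested. An RNA was called at a Benjamini-Hochberg adjusted p under 0.05. TMM, which sets the bulk of the RNAs of a table to no change, is given beside this scale because it moved the split of calls. Of 105 miRNAs tested, 37 were called higher in Sigma (35.2%) and 2 higher in Gibco serum (1.9%), against 7 (6.67%) and 6 (5.71%) under TMM. Of 280 other small ncRNA loci, 174 were called higher in Sigma (62.1%) and 0 in Gibco serum (0.0%), where 0 also reached an unadjusted p under 0.05 by edgeR and DESeq2 with spike-in factors called 1. Under TMM 50 loci (17.9%) were higher in Sigma and 60 (21.4%) in Gibco serum. Of 48 anticodons, 30 were called higher in Sigma (62.5%) and 0 in Gibco serum (0.0%), with 0 at an unadjusted p under 0.05 and 0 by DESeq2 with spike-in factors. Under TMM the counts were 7 (14.6%) and 2 (4.17%).

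The median log2 ratio was 0.62 over the miRNAs, 3.13 over the loci and 3.03 over the anticodons on the spike-in scale, and -0.03, -0.29 and 0.56 under TMM. Calls on the spike-in scale therefore stand against a table that was shifted towards Sigma serum as a whole. Under the total count of the library as size, 0 miRNAs were higher in Sigma and 23 in Gibco serum, and the median over the miRNAs was -2.51.

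**Figure D2:**
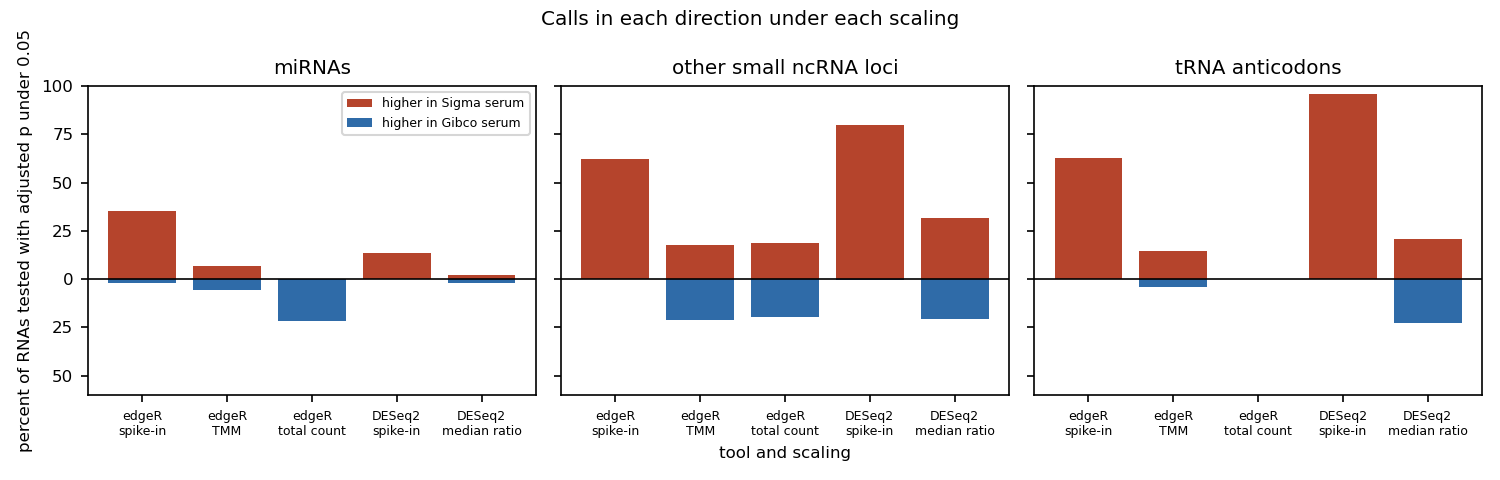
Percent of the RNAs tested that were called at an adjusted p under 0.05, higher in Sigma (up) or in Gibco serum (down), for miRNAs, other small ncRNA loci and tRNA anticodons under 5 combinations of tool and scaling. Calls lay almost all in the Sigma direction with the spike-in factors. They lay in both directions with the scalings computed from the counts, except under the total count. There the miRNA calls were all in the Gibco direction and 0 anticodons were called.

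Among tRNA fragments, those of tRNA-His with anticodon GTG (HisGTG, 11 loci) made the largest difference in amount in FBS and UC-dFBS. In UF-dFBS the difference was larger for tRNA-Gly with anticodon CCC, at 46792 against 2669. HisGTG stood at 498743 in FBS-1 against 4187 in FBS-2, at 319966 in UC-dFBS-1 against 32890 in UC-dFBS-2, and at 26144 in UF-dFBS-1 against 377.4 in UF-dFBS-2. The ratios were 119, 9.73 and 69.3. The Sigma sample was higher in every pair, with UF-dFBS-1 below UC-dFBS-2. The fitted log2 ratio was 5.52 ± 2.39 (SE, adjusted p = 0.0431, edgeR), and 2.92 with an adjusted p of 0.0793 under TMM. The most abundant locus of the family in these samples, tRNA7-HisGTG, lies on human chromosome 9 at 14433938 to 14434009 on the minus strand. In FBS-1 the 9 loci with most of the counts held 228973 to 325000 counts each. Loci of some other anticodons were less even, with 28343 to 67869 counts at the 4 main loci of GluTTC and 365 to 28526 at those of ValTAC in FBS-1. Others were more even, such as the 2 main loci of GlyCCC at 365125 and 400754 counts in FBS-1. The sum over an anticodon is the unit used here.

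HisGTG made up 63.7% of the tRNA counts of FBS-1 against 6.61% of FBS-2, 60.1% of UC-dFBS-1 against 25.5% of UC-dFBS-2, and 21.1% of UF-dFBS-1 against 11.3% of UF-dFBS-2. The widest Wilson 95% interval was 11.1% to 11.50%, in UF-dFBS-2. These shares do not use the spike-ins, and the Sigma sample was higher in every pair, by 33.9 ± 23.6 percentage points on average (SD, n = 3, exact permutation p = 0.25).

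Fragments of tRNA-Gly with anticodon CCC (GlyCCC, 7 loci) took the opposite share. They made up 20.3% of the tRNA counts in FBS-1 against 55.8% in FBS-2, 24.3% and 48.4% in UC-dFBS, and 37.8% and 79.8% in UF-dFBS. The Gibco share was higher in every pair and the groups did not overlap, with a mean difference Sigma minus Gibco of -33.8 ± 9.02 points (SD, n = 3, exact permutation p = 0.25). In amount GlyCCC was still higher in Sigma serum, at 158831 against 35331 in FBS, 129456 against 62553 in UC-dFBS and 46792 against 2669 in UF-dFBS. The ratios of 4.50, 2.07 and 17.5 were below those of HisGTG in the same preparations, and GlyCCC was not called (log2 ratio 2.42 ± 2.01, SE, adjusted p = 0.246, edgeR).

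Fragments of tRNA-Glu with anticodon TTC (GluTTC, 12 loci) were also a larger part of the Gibco tRNA counts in 2 of the preparations. They made up 5.09% in FBS-1 against 28.7% in FBS-2, and 5.09% in UC-dFBS-1 against 14.7% in UC-dFBS-2, but 3.99% in UF-dFBS-1 against 2.44% in UF-dFBS-2 (mean difference -10.6 ± 12.6 points, SD, n = 3, exact permutation p = 0.5). Their amounts were 39804 against 18205 in FBS, 27080 against 18929 in UC-dFBS and 4932 against 81.6 in UF-dFBS. The ratios of 2.19 and 1.43 in the first pairs were small beside the 60.4 in UF-dFBS, and GluTTC was not called (log2 ratio 2.17 ± 2.03, SE, adjusted p = 0.301, edgeR).

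**Figure D3:**
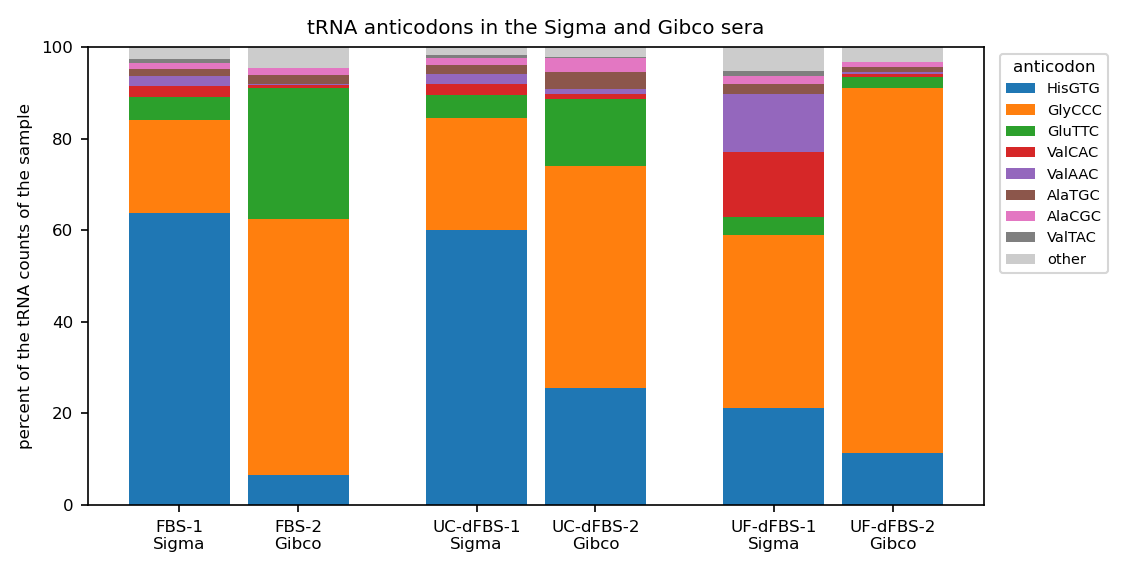
Percent of the tRNA counts of each sample that fell to the 8 anticodons with the largest sums and to all others, as stacked bars in pairs by preparation. HisGTG is the largest part of FBS-1 and UC-dFBS-1, GlyCCC is the largest part of every Gibco sample and of UF-dFBS-1, and GluTTC is visible mainly in FBS-2 and UC-dFBS-2.

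tRNA-Val fragments had the largest fitted log2 ratios of the 12 most abundant anticodons. Their ratios were the largest of the 12 in UF-dFBS, whereas HisGTG had the largest in FBS, 119, and GlyGCC in UC-dFBS, 16.8. ValCAC stood at 18629 in FBS-1 against 282 in FBS-2, at 12574 in UC-dFBS-1 against 1569 in UC-dFBS-2, and at 17541 in UF-dFBS-1 against 19.9 in UF-dFBS-2. Every Sigma sample was above every Gibco sample, as for 17 of the 48 anticodons tested. The ValCAC level in the Sigma serum changed little with ultrafiltration. ValCAC rose to a log2 ratio of 6.18 ± 2.25 (SE, adjusted p = 0.0142, edgeR). ValAAC had nearly the same ratios, 67.0, 8.09 and 879 against 66.1, 8.01 and 880 for ValCAC. Reads of these anticodons may be shared between their loci, since how reads with several matching loci were placed is not given in the sources used here. ValTAC, at 6904 against 63.9, 3568 against 336 and 1120 against 3.21, had a log2 ratio of 6.33 ± 1.94 (SE, adjusted p = 0.00413, edgeR). All 3 Val anticodons were also called higher in Sigma serum under TMM, at adjusted p of 0.0162, 0.0162 and 0.00259.

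The alanine anticodons AlaTGC, AlaCGC and AlaAGC moved alike. Their ratios were 10.83 to 10.95 in FBS, 2.18 to 2.23 in UC-dFBS and 64.6 to 72.8 in UF-dFBS. None was called, with adjusted p of 0.0878, 0.0857 and 0.0596 by edgeR. GlyGCC, the other abundant glycine anticodon, stood at 3882 against 430.7, 1049 against 62.4 and 3286 against 12.0, without overlap of the groups, and was called (log2 ratio 4.88 ± 1.72, SE, adjusted p = 0.0129, edgeR). Its adjusted p under TMM was 0.0554. AspGTC had ratios of 3.72, 3.39 and 6.93 and GluCTC of 4.64, 2.49 and 45.6, and neither was called (adjusted p 0.14 and 0.0857, edgeR). Of the 12 most abundant anticodons, 5 were called, a smaller share than the 62.5% of all anticodons. All 12 were higher in the Sigma sample of every pair, as were 45 of the 48 tested, and the groups did not overlap for 17 of the 48.

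Serine and lysine anticodons were less abundant. All 6 tested were called higher in Sigma serum, beside 62.5% of all anticodons, and 3 of them were named first because loci of them had the largest changes in the fit over loci. SerAGA stood at 964 in FBS-1 against 7.65 in FBS-2, at 380 in UC-dFBS-1 against 4.40 in UC-dFBS-2, and at 62.7 in UF-dFBS-1 against 1.21 in UF-dFBS-2, with ratios of 126.1, 86.4 and 51.9. SerTGA had ratios of 84.8, 66.2 and 23.2, and LysCTT of 36.3, 36.5 and 92.2. Every Sigma sample was above every Gibco sample for each of them, as for 17 of the 48 anticodons tested. SerAGA rose to a log2 ratio of 6.37 ± 1.38 (SE, adjusted p = 8.65e-05, edgeR), SerTGA to 5.67 ± 1.14 (adjusted p = 3.95e-05) and LysCTT to 5.62 ± 1.42 (adjusted p = 0.000562). SerAGA, SerTGA and LysCTT were called in the same direction under TMM, at adjusted p of 0.00078, 0.00259 and 0.00259. LysTTT, with ratios of 14.9, 6.09 and 66.7, SerCGA, with 5.75, 6.17 and 3.91, and SerGCT, with 4.44, 3.30 and 3.53, were not called under TMM, where their log2 ratios were 1.69, -0.12 and -0.62 (adjusted p 0.132, 0.95 and 0.574, edgeR).

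The loci with the largest changes, up to 2 per family, were tRNA6-AlaAGC, tRNA147-SerAGA, tRNA5-SerAGA, tRNA51-SerTGA, tRNA172-SerTGA, tRNA16-ValTAC, tRNA10-LysCTT and tRNA4-ValAAC. tRNA147-SerAGA, on human chromosome 6 at 27509554 to 27509635 on the minus strand, had 542 counts in FBS-1 against 4 in FBS-2, 292 in UC-dFBS-1 against 4 in UC-dFBS-2, with 414 in UF-dFBS-1 against 1 in UF-dFBS-2. tRNA51-SerTGA, on chromosome 6 at 27513468 to 27513549 on the plus strand, had 570 against 3, 290 against 4 and 430 against 3 counts. tRNA6-AlaAGC had 153 against 2 counts in FBS, and in the other pairs 14.8 and 2.32 spike-in normalized counts against 0 counts, so that it was at least 33.7-fold higher in UC-dFBS and 18.6-fold higher in UF-dFBS against 3 counts in the Gibco sample. Its fitted log2 ratio of 7.62 depends on the prior count of the fit. All 8 were called in the Sigma direction under TMM as well, at adjusted p from 0.000232 to 0.0397. tRNA6-AlaAGC, tRNA147-SerAGA and tRNA51-SerTGA passed the count filter through the Sigma samples alone. Their calls and ranks are therefore not independent of that filter.

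At the other end, AsnGTT and TyrGTA were tested at low values. AsnGTT stood at 4.34 against 1.48, 1.38 against 1.61 and 0.634 against 1.04, and TyrGTA at 2.48 against 2.41, 0.765 against 0.879 and 1.32 against 0.833. Their log2 ratios were 0.18 ± 0.70 (SE, adjusted p = 0.801, edgeR) and 0.21 ± 0.69 (adjusted p = 0.781). They were the 2 anticodons called higher in Gibco serum under TMM. StemPRO held 2.28 and 0.740 of them, so that part of their values lay at or below the background.

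**Figure D4:**
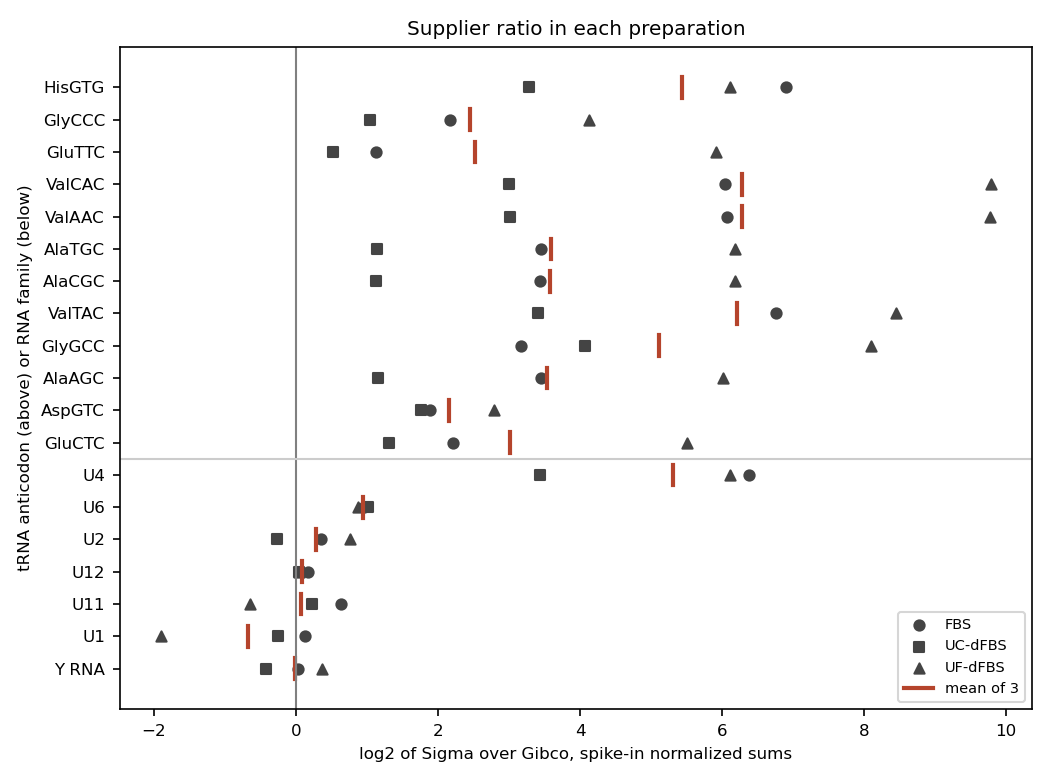
Log2 ratio of Sigma over Gibco in each preparation (symbols) and the mean of the 3 (red bar), on the spike-in scale, for the 12 most abundant anticodons and for snRNA families and Y RNA. All 12 anticodons and U4 lay right of 0 in every preparation, while U1, U2, U11 and Y RNA had points on both sides.

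Among snRNAs, U4 was the family with the largest difference, and U6 was the other one called. U4 pairs with U6 in the spliceosome before splicing starts. The family sum stood at 557 in FBS-1 against 6.71 in FBS-2, at 330 in UC-dFBS-1 against 30.5 in UC-dFBS-2, and at 518 in UF-dFBS-1 against 7.45 in UF-dFBS-2. Every Sigma sample was above every Gibco sample, with ratios of 83.1, 10.8 and 69.5. Ultrafiltration left the Sigma level close to that of regular FBS. All 10 U4 loci tested were called higher in Sigma serum, beside 62.1% of all loci tested. They held 229 to 290 counts each in FBS-1 and 1 to 10 in FBS-2, 190 to 230 and 17 to 26 in UC-dFBS, and 2622 to 2966 and 11 to 26 in UF-dFBS, so that their calls are not separate evidence. The most abundant, U4.24-201, had 290 against 3, 215 against 18 and 2935 against 16 counts and a log2 ratio of 5.67 ± 1.06 (SE, adjusted p = 1.59e-05, edgeR). With loci summed to families, 27 of 58 families were called higher in Sigma (46.6%) and 0 in Gibco serum (0.0%, with 0 at an unadjusted p under 0.05 by edgeR). U4 was among them with a log2 ratio of 5.37 ± 1.02 (SE, adjusted p = 0.0218, edgeR). HisGTG was not called in that fit (adjusted p = 0.0614). The family fit was added after the data had been seen.

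U4 accounted for 51.5% of the snRNA counts in FBS-1 against 1.64% in FBS-2, 53.9% and 9.83% in UC-dFBS, and 98.0% and 43.3% in UF-dFBS. Without U4, the snRNA total was 524 against 402 in FBS, 282 against 280 in UC-dFBS and 10.4 against 9.74 in UF-dFBS. The mean log2 ratio without it was 0.16 ± 0.19 (SD, n = 3), in place of 2.44.

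The other spliceosomal families differed less. U1, which binds the start of an intron, stood at 79.7 against 73.2, 24.5 against 29.0 and 0.905 against 3.37, with a log2 ratio of -0.64 ± 0.56 (SE, adjusted p = 0.363, edgeR). U2, which binds the branch point, stood at 174 against 135, 72.8 against 87.4 and 4.45 against 2.62, with a log2 ratio of 0.28 ± 0.46 (adjusted p = 0.621). StemPRO held 1.16 of U1 and 1.66 of U2, so that U1 in UF-dFBS-1 was below the background. Their most abundant loci were RNU1-7-201, on human chromosome 14 at 35015920 to 35016083, and U2.38-201, on chromosome 6 at 89773219 to 89773409. RNU1-7-201 had 33 against 29, 13 against 7 and 2 against 5 counts, and U2.38-201 had 181 against 187, 84 against 108 and 10 against 4. Neither was called (adjusted p 0.912 and 0.903, edgeR).

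U11 and U12 belong to the minor spliceosome and were each counted almost wholly at 1 locus. RNU11-201, on human chromosome 1 at 28975112 to 28975245, had 859 counts in FBS-1 against 852 in FBS-2, 772 and 688 in UC-dFBS, and 21 and 14 in UF-dFBS. RNU12-201, on chromosome 22 at 43011250 to 43011399, had 521 counts in FBS-2, 392 and 396 in UC-dFBS, and 92 and 38 in UF-dFBS, and its family stood at 79.1 against 70.2 in FBS. As families their log2 ratios were 0.11 ± 0.51 (SE, adjusted p = 0.859, edgeR) and 0.09 ± 0.36 (adjusted p = 0.85). U12 had spike-in ratios of 1.13, 1.03 and 1.03. U6 was higher in Sigma serum, at 9.08 against 4.70, 4.13 against 2.05 and 2.37 against 1.29, with ratios of 1.93, 2.01 and 1.84 and a log2 ratio of 0.94 ± 0.27 (SE, adjusted p = 0.0492, edgeR). It was near the threshold, and StemPRO held 0.963 of it. U5 and U7 had at most 32 counts in a sample and were not tested.

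Y RNA loci are many because the genes have numerous copies in the human genome. Of 238 loci 13 were tested, and 0 were called in either direction by edgeR, with 0 at an unadjusted p under 0.05. limma also called 0, and DESeq2 with spike-in factors called 1 higher in Gibco serum. The most abundant, Y_RNA.384-201 on human chromosome 7 at 6252269 to 6252371, had 716 counts in FBS-1 against 1181 in FBS-2, 565 and 738 in UC-dFBS, and 952 and 272 in UF-dFBS, which are spike-in ratios of 0.933, 0.799 and 1.52. The Y RNA sum had a log2 ratio of -0.01 ± 0.56 (SE, adjusted p = 0.991, edgeR). Under TMM, where the table as a whole was moved towards Gibco serum, 12 of the 13 were called higher in Gibco serum, as were 8 of 10 U1 loci and 9 of 10 U2 loci, beside 21.4% of all loci. At the same time 5 of 10 U4 loci were called higher in Sigma serum, beside 17.9% of all loci. DESeq2 with its own size factors called 13, 8 and 10 of the Y RNA, U1 and U2 loci higher in Gibco serum. Thus U4 lay above U1, U2, U11, U12 and the Y RNAs on both scales, and whether the U1, U2 and Y RNA loci were called depended on the scale.

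Of 163 snoRNA loci 3 were tested. SNORD57.1-201, a C/D box snoRNA on human chromosome 20 at 2637585 to 2637656, had 79 counts in FBS-1 against 0 in FBS-2, 61 and 2 in UC-dFBS, and 152 and 1 in UF-dFBS. Against 3 counts in the Gibco sample it was at least 40.5-fold higher in FBS, and it was called (adjusted p = 7.71e-07, edgeR). It was also called under TMM (adjusted p = 0.0446). SNORD57.1-201 passed the count filter through the Sigma samples alone, so that its calls are not independent of that filter. SNORD94-201, at 35.9 against 37.7 in FBS and 22.9 against 18.8 in UC-dFBS, with 7 and 2 counts in UF-dFBS, and SCARNA15-201, with 41 and 49, 15 and 12, and 0 and 0 counts, were not called (adjusted p 0.839 and 0.699, edgeR).

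miR-122-5p, the major miRNA of hepatocytes, led the miRNAs of both sera. It stood at 19403 in FBS-1 against 4817 in FBS-2, at 4629 in UC-dFBS-1 against 2100 in UC-dFBS-2, and at 46.0 in UF-dFBS-1 against 16.2 in UF-dFBS-2, with ratios of 4.03, 2.204 and 2.84. It rose to a log2 ratio of 1.55 ± 0.35 (SE, adjusted p = 0.000326, edgeR), and to 1.04 with an adjusted p of 0.031 under TMM. Among miRNA counts it made up 46.1% in FBS-1 against 28.9% in FBS-2, 59.6% and 54.5% in UC-dFBS, and 60.4% and 41.5% in UF-dFBS, a mean difference of 13.7 ± 7.57 points (SD, n = 3). Without it the miRNA total kept ratios of 1.91, 1.79 and 1.32. StemPRO held 0.0648 of it.

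The other tested members of the liver list were also called. miR-192-5p had a log2 ratio of 1.08 ± 0.34 (SE, adjusted p = 0.00807, edgeR) and miR-194-5p, which shares a cluster with it, of 1.63 ± 0.50 (adjusted p = 0.00656). miR-192-5p had ratios of 3.08 in FBS and 1.17 in UC-dFBS, where it had 48 against 43 counts, so that its difference lay mainly in the FBS pair. miR-194-5p had ratios of 2.85 and 2.98. In UF-dFBS they had 9 against 1 and 9 against 0 counts. Thus 3 of 5 liver miRNAs were tested and all 3 were higher in Sigma serum, at a median log2 ratio of 1.55 beside 0.62 over all miRNAs and 35.2% of them called. Under TMM the median was 0.94 and miR-122-5p was the member called.

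The red cell miRNAs moved in opposite directions. miR-451a, which is made without Dicer and is abundant in red cells, stood at 71.8 against 32.6 in FBS and 3.82 against 1.61 in UC-dFBS, with 6 and 2 counts in UF-dFBS, and was higher in Sigma serum (log2 ratio 1.12 ± 0.34, SE, adjusted p = 0.00656, edgeR). miR-486-5p stood at 126.3 against 237 in FBS, 10.6 against 17.6 in UC-dFBS and 0.489 against 0.833 in UF-dFBS, and was higher in Gibco serum (log2 ratio -0.82 ± 0.28, adjusted p = 0.0138). miR-486-5p was higher in the Gibco sample of every pair. miR-451a was higher in the Sigma sample in FBS and UC-dFBS, and its counts in UF-dFBS were too low to give a direction. Under TMM miR-486-5p was called (adjusted p = 0.000243) and miR-451a was not (0.65). Of the 4 deposited members, miR-144-5p had 167 against 96 and miR-144-3p 62 against 28 counts in FBS, ratios of 2.68 and 3.41, with 0 to 4 counts in the other samples, and they were not tested. The summed level of the list was 245 against 286, 15.5 against 19.3 and 0.634 against 0.916, higher in the Gibco sample of every pair. This sum followed miR-486-5p, while the other 3 members were higher in the Sigma sample in FBS.

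The other miRNA called higher in Gibco serum was miR-423-5p, at 137 against 240, 38.6 against 67.7 and 0.543 against 1.25 (log2 ratio -0.88 ± 0.27, SE, adjusted p = 0.00656, edgeR). Its ratios were 0.571, 0.569 and 0.435. Under TMM miR-320a, miR-361-5p, miR-23b-3p and miR-342-3p were called in the same direction, and their log2 ratios on the spike-in scale were -0.61, -0.73, -0.58 and -0.48 without a call. Those 4 are outside the naming rule and were chosen with their values known.

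White cell and platelet miRNAs differed among themselves. The arms of miR-142, which is specific to blood cells, were called: miR-142-3p stood at 2759 against 821 and 191.5 against 71.7 in FBS and UC-dFBS (log2 ratio 1.60 ± 0.39, SE, adjusted p = 0.00109, edgeR), and miR-142-5p at 589 against 135.8 and 62.7 against 27.0 (1.69 ± 0.36, adjusted p = 0.00017). In UF-dFBS they had 16 to 17 counts in the Sigma and 2 in the Gibco sample. miR-223-3p, a myeloid and platelet miRNA, was not called (log2 ratio 0.43 ± 0.29, adjusted p = 0.235). Of 8 members 6 were tested and 2 called higher in Sigma serum, a share close to the 35.2% of all miRNAs, at a median of 0.53. Under TMM the same 2 were called higher in Sigma serum and miR-342-3p higher in Gibco serum.

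Vascular miRNAs had 4 of 5 members tested and 3 called higher in Sigma serum, beside 35.2% of all miRNAs, at a median of 1.27. The smooth muscle miRNAs miR-143-3p and miR-145-5p lie in 1 cluster. miR-143-3p stood at 1313 against 430.7 and 227 against 71.8 in FBS and UC-dFBS (log2 ratio 1.67 ± 0.39, SE, adjusted p = 0.000677, edgeR) with 12 against 1 counts in UF-dFBS. miR-145-5p stood at 25.2 against 9.12 and 6.88 against 2.93, with 68 against 1 counts in UF-dFBS (1.77 ± 0.37, adjusted p = 0.00017). The endothelial miR-126 had its 5p arm called (0.79 ± 0.30, adjusted p = 0.0344) and its 3p arm not (0.88 ± 0.38, adjusted p = 0.0595). Under TMM miR-143-3p and miR-145-5p were called and the arms of miR-126 were not.

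The let-7 family, which is expressed in most differentiated tissues, had all 9 members tested and 6 of them called higher in Sigma serum, beside 35.2% of all miRNAs, with a median of 0.76. The called members were let-7c, let-7d, let-7e, let-7g, let-7i and miR-98-5p, with log2 ratios of 0.74 to 1.57. The 3 most abundant members, let-7a, let-7b and let-7f, were not called, at 0.61, 0.51 and 0.34 (adjusted p 0.171, 0.235 and 0.477, edgeR). In UF-dFBS the family did not follow the other pairs. Its summed level was 4.001 against 5.704 there, a ratio of 0.702, after 1.76 in FBS and 1.96 in UC-dFBS. StemPRO held 2.06 of the sum. let-7f and let-7c had ratios of 0.331 and 0.391 in UF-dFBS, from 19 against 25 and 9 against 10 counts. In UF-dFBS-1 they stood at 0.344 and 0.163, below the 0.426 and 0.176 of StemPRO. Of the 9 members, 2 were higher in the Sigma sample of all 3 pairs, of which let-7e had 1 against 0 counts in UF-dFBS. Under TMM the median was 0.03, beside -0.03 over all miRNAs, let-7e and let-7g had values of -0.02, and 0 of 9 were called by edgeR, with 0 at an unadjusted p under 0.05. On the spike-in scale DESeq2 called 0 and limma 0 or 1 of the 9, by pseudocount.

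Imprinted miRNAs of the DLK1-DIO3 region, which are typical of fetal and placental tissue, had 12 of 55 members tested and 3 called higher in Sigma serum, a smaller share than the 35.2% of all miRNAs. They were miR-432-5p (log2 ratio 0.90 ± 0.28, SE, adjusted p = 0.00796, edgeR), miR-369-3p (0.85 ± 0.34, adjusted p = 0.0368) and miR-299-3p (1.74 ± 0.54, adjusted p = 0.00656). miR-382-5p and miR-379-5p, at 0.53 and 0.59, were not called. The median of 0.56 was close to that of all miRNAs, and 0 were called under TMM by edgeR, with 1 at an unadjusted p under 0.05, in the Gibco direction. DESeq2 with spike-in factors called 1 higher in Sigma serum.

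The remaining lists had few members to test. Of 7 muscle and heart miRNAs only miR-1 was tested (log2 ratio 0.76 ± 0.64, SE, adjusted p = 0.346, edgeR), with 32 and 22, 17 and 3, and 27 and 18 counts, beside 21 in StemPRO. Of 8 epithelial miRNAs only miR-203a was tested (0.46 ± 0.38, adjusted p = 0.34). It had 34 and 40, 23 and 22, and 282 and 75 counts. As spike-in normalized counts these were 7.02 and 5.37, 3.52 and 3.22, and 5.11 and 3.12, with 3.22 in StemPRO. The neural and endocrine list had 2 of 6 members tested and 0 called by edgeR, DESeq2 or limma, with 1 at an unadjusted p under 0.05 by edgeR. They were miR-7-5p (1.64 ± 0.72, adjusted p = 0.0612) and miR-128-3p (-0.25 ± 0.66, adjusted p = 0.79). Untested members of the lists named by abundance, miR-133a-3p, miR-206, miR-205-5p, miR-200a-3p and miR-218-5p, had fewer than 10 counts in at least 4 of the 6 samples.

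**Figure D5:**
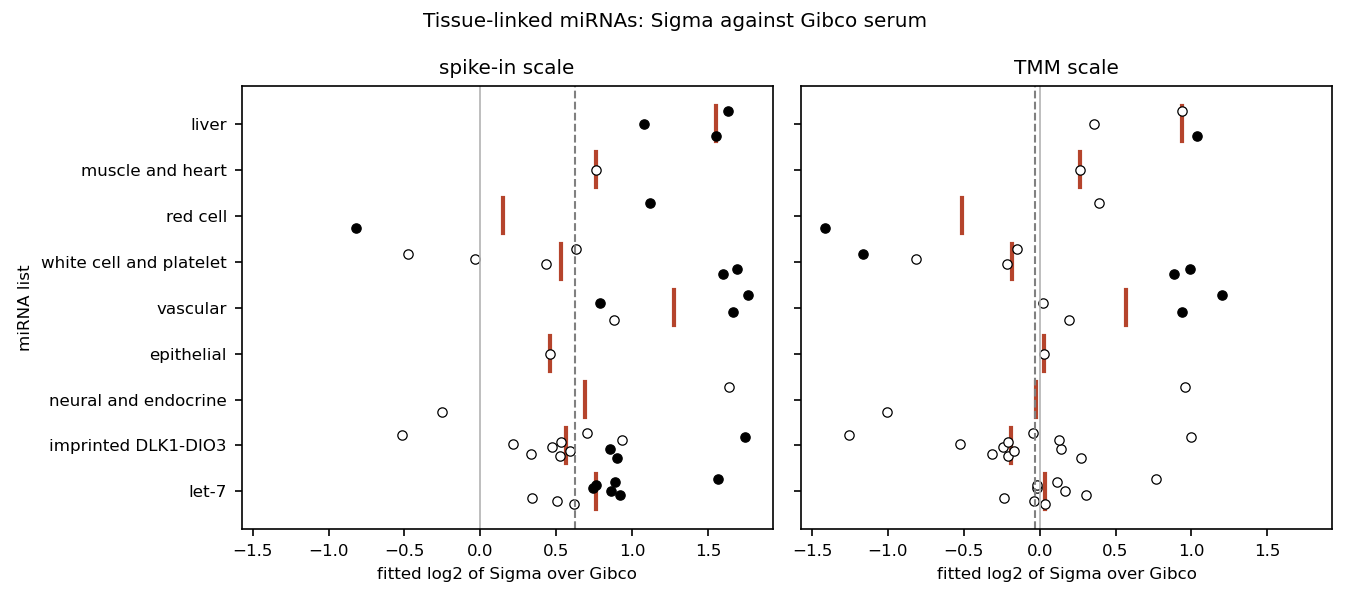
Fitted log2 ratio of Sigma over Gibco for each tested member (points, black where the adjusted p was under 0.05) of 9 miRNA lists, with the list median (red bar) and the median of all 105 miRNAs (dashed line), on the spike-in scale (left) and under TMM (right). Liver and vascular medians lay furthest to the right on both scales. The let-7, muscle and heart, and neural and endocrine medians also lay right of the dashed line on both scales, and the red cell members lay on both sides of 0.

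Outside the lists, miR-4532 and miR-101-3p had the largest called changes among the miRNAs that were higher in Sigma serum in all 3 preparations. miR-199b-5p and miR-19b-3p, with 0 counts of either in both UF-dFBS samples, were also called, at log2 ratios of 2.09 (adjusted p = 0.00656, edgeR) and 1.87 (adjusted p = 0.0015), and were named with their values known. miR-4532, whose annotation as a miRNA is uncertain, stood at 2.27 against 0.00, 1.68 against 0.147 and 1.10 against 0.167. It was the 1 miRNA of the 105 in which every Sigma sample was above every Gibco sample, and it was called (adjusted p = 0.026, edgeR). With 0 counts in FBS-2 it was at least 5.64-fold higher in FBS against 3 counts, and UC-dFBS-2 had 1 count. It had 11, 11 and 61 counts in the Sigma samples and passed the count filter through them alone. Its call and its lack of overlap are therefore not independent of that filter. miR-101-3p stood at 120 against 29.4 and 8.11 against 3.66 in FBS and UC-dFBS (log2 ratio 1.82 ± 0.32, SE, adjusted p = 3.4e-06, edgeR). Over the 105 miRNAs, 42 were higher in Sigma serum in all 3 preparations and 5 in Gibco serum. No count floor was applied here. Some directions in UF-dFBS therefore rest on very few counts, such as 1 against 0 for let-7e and miR-185-5p.

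In UF-dFBS the miRNA pairs were close to the background. Of the 105 miRNAs tested, 30 in UF-dFBS-1 against 39 in UF-dFBS-2 were at or below the StemPRO level, against at most 1 in each of the other 4 samples. Without the UF-dFBS pair 52 miRNAs were called higher in Sigma and 5 in Gibco serum, while without the FBS pair 0 were called, with 4 at an unadjusted p under 0.05 by edgeR, and without the UC-dFBS pair 1. The number of miRNA calls thus depended on the pairs in the fit, and a fit without a pair also has fewer samples and less power. The median log2 ratio over the miRNAs was 0.53 without the FBS pair, 0.56 without the UC-dFBS pair and 0.74 without the UF-dFBS pair, beside 0.62 with all pairs. Among the 48 anticodons 2 in UF-dFBS-1 against 7 in UF-dFBS-2 were at or below the StemPRO level, and 8 were called higher in Sigma serum without the FBS pair, 21 without the UC-dFBS pair and 31 without the UF-dFBS pair.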

How the data were processed

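Small ncRNA was sequenced from media with serum of Sigma (n = 3) and Gibco (n = 3). Reads that held an adapter, an insert and a UMI (cutadapt 1.11) were kept by the authors, who collapsed full-length UMI reads to unique combinations, removed spike-in and outmapped reads and mapped the rest with Bowtie2 2.2.2 to mature miRBase sequences and human GRCh37. The deposited counts are such reads per miRNA (425) and locus (1361, of which 604 held the same counts as another locus in every sample). The deposited spike-in normalized signal is the count divided by 1 factor per sample, which was constant within each sample. Rows were joined by name and position.

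Counts were fitted in edgeR 4.0.16 (R 4.3.3, quasi-likelihood F-test, library sizes set to the spike-in factors, no TMM, medium then supplier as terms) for miRNAs, loci and anticodon sums, if 3 or more samples had 10 or more counts, Benjamini-Hochberg adjustment and threshold 0.05. An SE is the log2 ratio over the square root of F. Class totals and shares were tested by an exact two-sided sign-flip permutation test over the 3 pairs, and shares have Wilson 95% intervals. Alternatives were TMM, total counts, DESeq2 1.42.0, limma 3.58.1 on log2 of the normalized value plus 0.1 or 1, other filters, no medium term and leaving out a pair. In simulated data with log2 changes of 2 and 4, the miRNA fit found 32 and 32 of 32 changed miRNAs among 105, the locus fit 10 and 69 of 84 among 280, and the anticodon fit 4 and 14 of 14 among 48.

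The preparation paired the samples, as both sera went through each. Deviations from the supplier mean correlated between the samples of a preparation at 0.662 to 0.865 for miRNAs and 0.292 to 0.430 for loci. Named RNAs were the classes, the 12 most abundant anticodons and any higher in Gibco serum, the 3 most abundant and every called member of each miRNA list, up to 8 RNAs per direction with the largest called change in the same direction in all preparations (at most 2 loci per family), and the most abundant locus of each snRNA, Y RNA and snoRNA family, of which those in the fit are given. These lists and members were chosen with earlier results of these data known. No statistic of the study's own was used.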

Additional observations from a re-analysis of the deposited data

Results flagged for a closer look

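Among the class totals and the snRNA families tested, 4 sums went in opposite directions in different preparations. This was not tested, since each preparation holds 1 sample of each serum. Sums outside these also did so, such as AsnGTT, TyrGTA and the let-7 list, given above with their StemPRO levels. On the log2 scale of Sigma over Gibco, the Y RNA total was -0.42 in UC-dFBS and 0.37 in UF-dFBS. U1 was 0.12 in FBS and -1.90 in UF-dFBS, where UF-dFBS-1 had 50 counts and UF-dFBS-2 had 81. As spike-in normalized counts these were 0.905 and 3.37, beside 1.16 in StemPRO. U2 was -0.26 in UC-dFBS and 0.76 in UF-dFBS. U11 was 0.64 in FBS and -0.65 in UF-dFBS, where it had 22 and 15 counts.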

How the results depend on the processing

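The scaling changed how many calls were made and how they split between the sera. With the total count as library size, miRNA calls were 0 higher in Sigma and 23 in Gibco serum, locus calls 53 and 55 and anticodon calls 0 and 0, of which 6 and 7 were at an unadjusted p under 0.05 by edgeR. TMM gave 7 and 6, 50 and 60, and 7 and 2. DESeq2 gave 14 and 0, 224 and 1, and 46 and 0 with spike-in factors, and 2 and 2, 89 and 58, and 10 and 11 with its own. Without a filter the miRNA calls were 24 and 0, and limma gave 13 and 0 with 0.1 and 7 and 0 with 1 added. With the pairing left out (no replicate block), 0 miRNAs, loci and anticodons were called by edgeR in either direction, with 1, 100 and 15 at an unadjusted p under 0.05. Leaving out 1 pair gave 0 to 52 miRNAs higher in Sigma and 0 to 5 in Gibco serum, 60 to 186 loci higher in Sigma serum (fewest without FBS), and 8 to 31 anticodons. As shares of all counts, the mean log2 ratios of the classes were -2.41 for miRNA, -3.52 for Y RNA, -1.07 for snRNA, -2.41 for snoRNA and 0.11 for tRNA. For the spike-in totals of the same classes, in that order, leaving out 1 pair gave mean log2 ratios of 0.99 to 1.17, -0.19 to 0.20, 1.19 to 3.17, 0.65 to 1.37 and 2.84 to 4.42. Under TMM the list medians were 0.94 for liver, -0.51 for red cell, -0.18 for white cell and platelet, 0.0276 for epithelial and -0.19 for DLK1-DIO3 miRNAs. The neural and endocrine median was -0.10 to 0.91 when 1 pair was left out.

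With total counts 0 of the 105 miRNAs had a log2 ratio above 0, so that all 37 called higher in Sigma serum changed sign. Those named here went to -0.0481 for miR-4532, -0.97 for miR-101-3p, -1.16 for miR-145-5p, -1.004 for miR-299-3p, -1.51 for miR-142-5p, -1.37 for miR-143-3p, -1.11 for miR-194-5p, -1.64 for miR-142-3p, -1.92 for miR-122-5p, -1.95 for miR-192-5p, -2.15 for miR-451a, -1.88 for miR-126-5p, -2.22 for miR-432-5p, -1.86 for miR-369-3p, -2.56 for let-7i, -2.80 for let-7c, -1.93 for let-7e, -2.77 for let-7g, -2.42 for let-7d and -1.54 for miR-98-5p, and the called miRNAs that changed sign under TMM went to -0.0177 for let-7e, -0.0151 for let-7g and -0.0168 for miR-93-5p. Of the other comparisons of single RNAs with their main value, 386 stayed on their side of the threshold, 186 lost and 26 gained a call and 36 uncalled values changed sign. Many low RNAs had few counts in UF-dFBS-2, which had 82513 counts in all. The recovery of longer RNAs relative to the spike-ins was not tested.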
